A study of Mus musculus with 2 samples.

Results

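The cells described here are tumour-like cells of a mouse lung tumour that stood out by RNA of Tnnt2, Tafa5, Amigo2 and Nptx1. They were 732 of 24830 cell barcodes. A gate first kept 9389 cells with at least 5000 UMIs (unique molecular identifiers, each counting 1 captured RNA molecule), at most 20% mitochondrial UMIs, few or no macrophage and leukocyte transcripts and at least 1 UMI of Hmga2, Tnfrsf12a or Igf2bp2. Within it, 2065 cells with at least 10 UMIs per 10000 of 5 mitotic genes were set aside as cycling. The remaining 7324 cells were ranked by the summed UMIs of Tnnt2, Tafa5, Amigo2 and Nptx1 per 10000 UMIs, called the score here, and the top 10% were the members. The other 6592 non-cycling gated cells are called the others. Because the score chose the members, levels of the score genes are a description of that choice.

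The tumours were LLC (Lewis lung carcinoma, a mouse lung cancer line) grafts, profiled with 10x Genomics droplets. The control tumour is labelled only as such, and the other carried a short hairpin RNA against Gfpt2, an enzyme of the hexosamine pathway that makes UDP-GlcNAc for glycosylation. The labels name no host strain, age, hairpin vector or clone. Each group was 1 library, so no replicate spread was available and no test was run. All ranges in parentheses are 95% intervals that cover counting error only.

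The control library held 165824226 UMIs in 11977 cells and the knockdown library 138402860 UMIs in 12853 cells. Gfpt2 itself was sparse. In the members it had 18 UMIs in the control library, a level of 1.71 CPM (counts per 1000000 UMIs summed over the cells; 1.01 to 2.70). The knockdown members had 1 UMI, or 0.221 CPM (0.00560 to 1.23). In the others it was 1.71 CPM in the control tumour and 0.679 CPM in the knockdown tumour. The libraries shared 37 barcodes, of which 1 belonged to a control member and none was a member in both.

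Tnnt2 encodes cardiac troponin T, the subunit that ties the troponin complex to tropomyosin on the thin filament of heart muscle. Tafa5 encodes a small secreted protein known mainly from the nervous system, Amigo2 a leucine-rich-repeat adhesion protein of neurons, and Nptx1 a secreted pentraxin that clusters glutamate receptors at synapses. Hmga1, the fifth marker named for these cells, is an architectural chromatin protein that is high in embryonic and tumour cells and did not enter the score. None of the 4 score genes is a marker of lung epithelium, and a carcinoma line can carry RNA of such tissue-restricted genes without the tissue's programme.

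Promoters of the leading score gene and of another muscle gene among the members' leading genes are shown because both genes are textbook targets of muscle promoter elements. The sequences are those of RefSeq for build GRCm38.p6, from 250 bases before to 50 bases after the start site, and a promoter was listed for 22 of the 32 named genes looked up. Capitals in Tnnt2 mark the letters of an M-CAT element (CATTCC, either strand), which TEAD factors bind. Capitals in Chrna1 mark E-boxes (CANNTG), which basic helix-loop-helix factors such as myogenin bind.
Tnnt2, chr1:135836084-135836383, plus strand: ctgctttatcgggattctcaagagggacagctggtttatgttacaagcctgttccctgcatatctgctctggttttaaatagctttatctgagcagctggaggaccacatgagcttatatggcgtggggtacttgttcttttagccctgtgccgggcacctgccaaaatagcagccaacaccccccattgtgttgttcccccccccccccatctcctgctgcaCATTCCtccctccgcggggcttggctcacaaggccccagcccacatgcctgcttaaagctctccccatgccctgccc
Chrna1, chr2:73580289-73580588, minus strand: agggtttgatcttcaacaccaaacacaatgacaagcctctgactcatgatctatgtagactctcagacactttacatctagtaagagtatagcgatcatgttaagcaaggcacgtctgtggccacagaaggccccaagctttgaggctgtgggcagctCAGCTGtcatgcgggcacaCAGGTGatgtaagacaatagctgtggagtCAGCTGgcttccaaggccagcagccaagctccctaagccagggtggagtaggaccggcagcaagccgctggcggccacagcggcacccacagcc
The Tnnt2 window held 1 M-CAT match, at -27 from the start site, and 5 E-boxes left in lower case, and the Chrna1 window held E-boxes at -92, -73 and -44. RefSeq lists another Tnnt2 start site downstream, whose window held 0 M-CAT matches and 2 E-boxes. M-CAT letters occurred in 14.7% and E-box letters in 72.3% of the 32851 mouse promoters of the same length, so these matches are descriptions of the windows only.

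Tnnt2 supplied most of the score. In the control library it reached 237 CPM (228 to 247) in members and 27.0 CPM (25.8 to 28.3) in the others. In the knockdown tumour the levels were 199 CPM (186 to 212) and 15.6 CPM (14.5 to 16.6). Cells with leukocyte markers, a type that should lack the gene, were at 29.3 CPM in the control tumour and 14.1 CPM in the knockdown tumour, close to the others' level. The others were not uniform. Outside the members, the top 10% of cells by Cryab and Krt14 had Tnnt2 at 49.3 and 32.2 CPM, and the top 10% by 5 collagen genes had 3.44 and 5.86 CPM. How much of the others' Tnnt2 is free RNA was not tested. With every cell thinned to 5000 UMIs, 61.1% of control and 54.3% of knockdown members kept a Tnnt2 UMI, against 10.3% and 6.67% of the others.

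Tafa5 was at 46.1 CPM in control members and 48.3 CPM in knockdown members, with 5.72 and 3.21 CPM in the others. Amigo2 was at 40.7 and 51.1 CPM in members and at 14.4 and 14.0 CPM in the others. Nptx1 was at 44.8 and 74.2 CPM in members and at 8.69 and 10.2 CPM in the others. Tnnt2 gave 64.4% of all score UMIs of control members and 53.4% of those of knockdown members. Summed over the 4 genes, control members had 369 CPM, the others 55.8 CPM and cells with leukocyte markers 50.4 CPM. In the knockdown tumour the sums were 372, 43.0 and 38.8 CPM. All 4 genes had a UMI in 11.3% of control and 8.27% of knockdown members, whereas 27.4% and 21.7% held UMIs of Tnnt2 alone. No gene exceeded the others combined in 22.8% of members in either library.

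Whether the 4 genes go together was looked at by leaving each out in turn and choosing the top 10% on the other 3. Tnnt2 was then at 84.8 CPM in the chosen control cells and 52.9 CPM in the rest, a log2 ratio of 0.68 (0.52 to 0.83), and at 56.8 and 26.6 CPM in the knockdown tumour, a log2 ratio of 1.09 (0.86 to 1.33). Tafa5 had the largest log2 ratio of the 4 left-out genes in each library, 1.75 (1.47 to 2.04) in the control tumour and 2.43 (2.00 to 2.87) in the knockdown tumour. Amigo2 had the smallest, 0.52 (0.25 to 0.78) and 0.74 (0.38 to 1.10). Nptx1 lay between them at 0.96 (0.68 to 1.25) and 1.57 (1.25 to 1.90). Each gene was thus higher in cells chosen without it, in both libraries and beyond counting error. The rule that named these 4 genes was chosen with earlier results of these data known. These ratios therefore describe that choice and are no independent support that the genes go together.

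Hmga1, outside the score, was at 132 CPM in control members and 81.6 CPM in the others, a log2 ratio of 0.69 (0.58 to 0.81). In the knockdown tumour it was at 107 and 67.6 CPM, a log2 ratio of 0.66 (0.48 to 0.84). The marker was therefore higher in members of each library, by less than 2-fold.

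**Figure D1:**
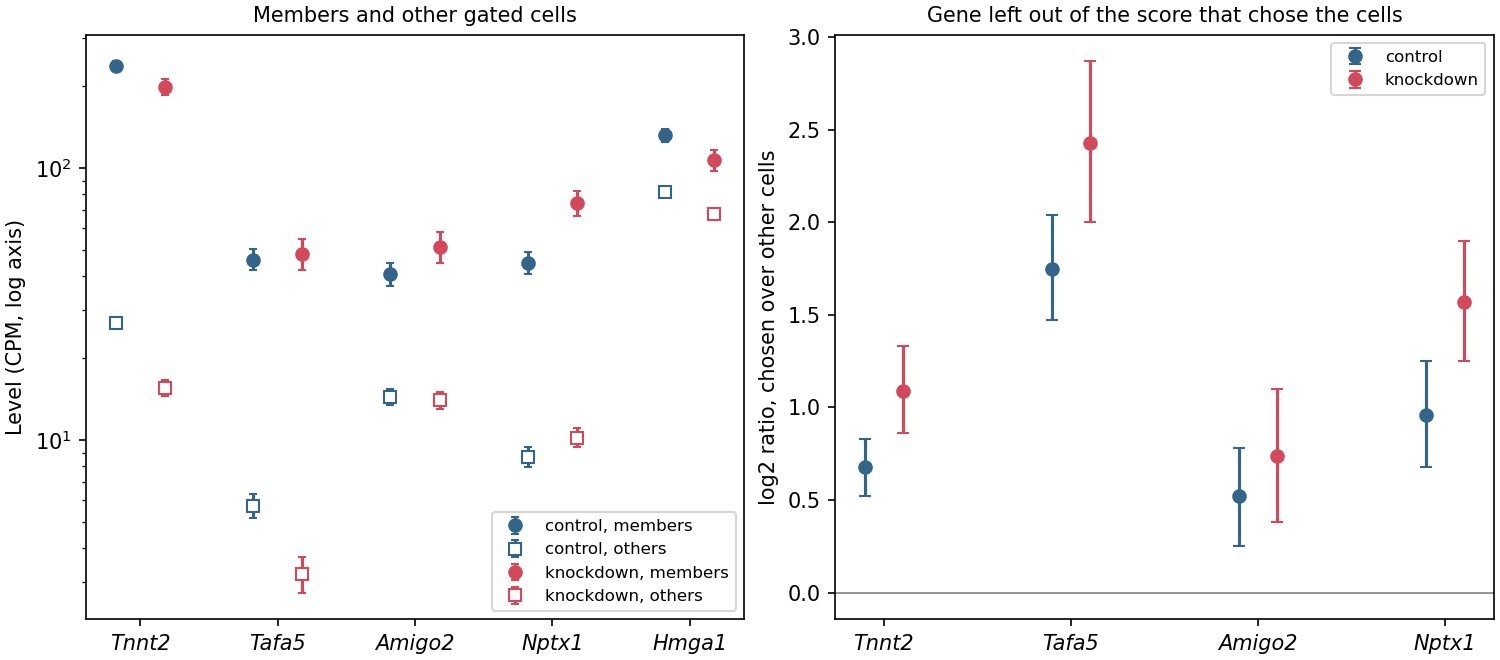
Left, CPM (log axis) of the 4 score genes and Hmga1 in members (filled circles) and others (open squares) of each library. Right, log2 ratio of each score gene between cells chosen on the other 3 genes and the rest. Bars are 95% counting intervals. Every left-out gene lies above 0, with Tafa5 highest (1.75 and 2.43). The rule that named the 4 genes was chosen with earlier results of these data known, so the right panel describes that choice.

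The cut fell within a continuous range of scores, so membership marks a range and not a separate type. The lowest member had 2.293 and the highest cell outside had 2.292 score UMIs per 10000, with a member median of 3.29 and a maximum of 13.2. Within 10% of the cut lay 117 members and 133 others. Of all non-cycling gated cells, 51.5% had no score UMI. A member held as few as 2 score UMIs, with a median of 7, and 97 members held 3 or fewer.

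Members made up 12.8% (11.7 to 13.9) of the non-cycling gated cells in the control library, 478 of 3742. They made up 7.09% (6.27 to 7.98) in the knockdown tumour, 254 of 3582, a ratio of 0.555 (0.452 to 0.681). With all cells thinned to 5000 UMIs, 9.86% of control and 6.34% of knockdown cells had at least 2 score UMIs, a ratio of 0.643 (0.512 to 0.805). Median UMIs were 20877 in control and 16234 in knockdown members, and 18228 and 14690 in the others. The median mitochondrial share was 1.74% and 1.75% in members and 1.79% and 1.85% in the others.

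The members were also counted by the score gene that led them, as a description of that choice. Members with more Tnnt2 UMIs than UMIs of any other score gene were 8.74% of control and 3.63% of knockdown cells, a ratio of 0.415 (0.314 to 0.547). The corresponding ratios were 0.871 (0.396 to 1.90) for Tafa5, 0.791 (0.366 to 1.69) for Amigo2 and 1.10 (0.578 to 2.09) for Nptx1, each with an interval that includes 1. The Tafa5 and Amigo2 intervals also include the 0.415 of Tnnt2, so these ratios do not tell whether the lower share was particular to members led by Tnnt2. Members in which genes tied for the most UMIs were 1.31% of control and 0.921% of knockdown cells. When Tnnt2 was left out of the score, members were 10.4% of control and 9.55% of knockdown cells, a ratio of 0.916. Over all non-cycling gated cells, Tnnt2 was at 56.4 CPM in the control tumour and 29.6 CPM in the knockdown tumour, a log2 ratio of -0.93 (-1.04 to -0.82). Amigo2 was at 18.1 and 16.8 CPM, a log2 ratio of -0.10 (-0.27 to 0.06), and Nptx1 at 13.7 and 15.1 CPM, a log2 ratio of 0.14 (-0.04 to 0.32). Tafa5 was lower, like Tnnt2, at 11.4 and 6.66 CPM, a log2 ratio of -0.77 (-1.01 to -0.53). The knockdown and the library cannot be told apart.

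**Figure D2:**
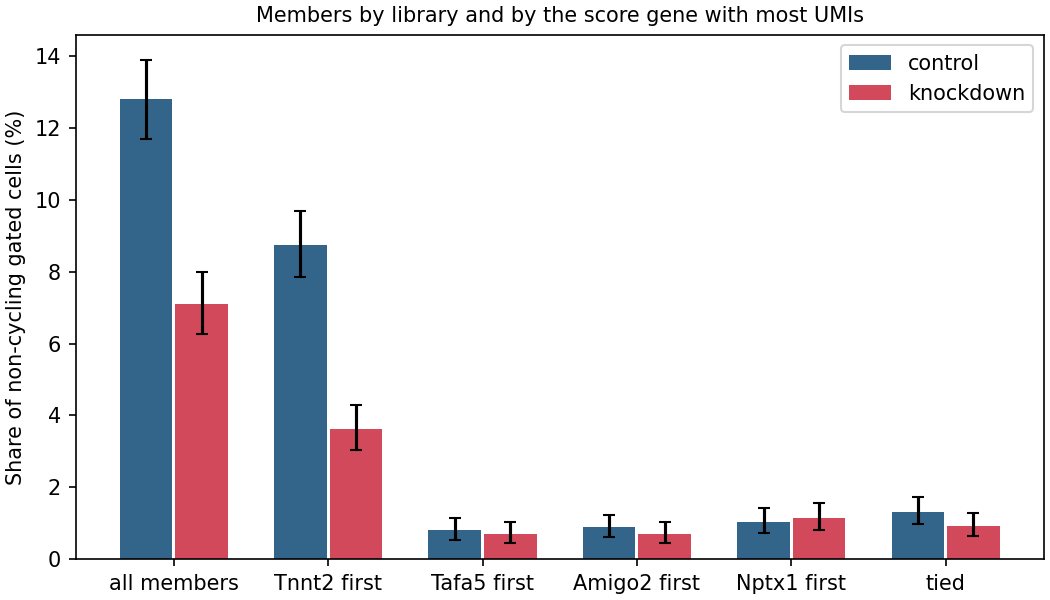
Share of non-cycling gated cells (%) that were members, in all, by the score gene with the most UMIs, and where genes tied, in each library. Bars carry exact binomial 95% intervals. All members were 12.8% and 7.09% of the cells, and those with Tnnt2 first 8.74% and 3.63%.

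The cycling cells that the rule set aside held the score genes too. At or above the same cut were 18.6% of the 967 cycling gated cells in the control tumour and 12.8% of the 1098 in the knockdown tumour. Among cells with leukocyte markers, 2.25% and 2.30% reached it. Tnnt2 was at 68.5 CPM in control cycling and 40.0 CPM in knockdown cycling cells, beside 56.4 and 29.6 CPM over all non-cycling gated cells, members included.

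Markers of other cell types were set beside these results. The 12 macrophage markers summed to 559 CPM in control members and 682 CPM in knockdown members, close to 572 and 679 CPM in the others and far under 52160.4 and 47332 CPM in cells with leukocyte markers. Of 6 cardiomyocyte markers (Myh6, Actn2, Ryr2, Nppa, Pln and Tnni3), 5 had no UMI in the members of either library, and their sum was 0.0950 CPM in control members and 0.221 CPM in knockdown members. The 6 skeletal muscle markers summed to 0.190 and 0 CPM, and the 6 neuron and Schwann cell markers to 3.90 and 2.21 CPM. Of the carcinoma markers, Krt8, Krt18 and Epcam were at 0.0950, 0 and 0.0950 CPM in control members and at 0 in knockdown members. Other epithelial genes were present. Of 15 genes of the epithelial list, 3 could be compared, and 2 of them, Krt14 and Klk8, were higher in members than in the others of both libraries beyond counting intervals, a criterion that 6.13% of all genes met as higher and 8.06% as lower. With Tnnt2 left out of the score, 0 were higher and 1 lower, and the list's median log2 ratio in the knockdown tumour went from 1.32 to -1.42. The list summed to 151 CPM in control members and 75.1 CPM in the others, and to 91.2 and 36.3 CPM in the knockdown tumour. Krt14 was at 25.4 and 13.9 CPM in the control tumour and at 75.5 and 24.5 CPM in the knockdown tumour. The cells are called tumour-like by Hmga2, at 289 CPM in control members and 300.2 CPM in knockdown members, a gene that the gate used. The 7 host fibroblast markers summed to 499 and 721 CPM in members and 1269.9 and 1317 CPM in the others.

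The contractile genes went both ways. Of 29 contractile and sarcomere genes, 14 had enough UMIs to compare, and 2 were higher and 2 lower in members of both libraries beyond counting intervals, beside 6.13% and 8.06% of all genes. Tpm4, a tropomyosin of non-muscle cells, was higher, at 489.8 and 457 CPM in the control tumour and at 532 and 472 CPM in the knockdown tumour, as was the calponin gene Cnn2, at 94.6 and 86.1 CPM and at 99.8 and 88.1 CPM. Cald1, which encodes caldesmon, was at 693 CPM in control members and 675 CPM in the others, and at 757 and 669 CPM in the knockdown tumour. Tpm1, a tropomyosin, was at 527 and 541 CPM in the control tumour and at 632 and 554 CPM in the knockdown tumour. The fast troponin I gene Tnni2 was lower, at 21.8 against 34.8 CPM in the control tumour and 24.6 against 34.6 CPM in the knockdown tumour. Actc1, Myh7 and Csrp3 had no UMI in any member. Of 8 cardiac transcription factors measured, 0 were higher and 0 lower in both libraries by the same criterion. Gata6 came nearest, at 13.7 and 9.95 CPM in the control (log2 ratio 0.46, 0.10 to 0.81) and 11.3 and 8.97 CPM in the knockdown tumour (0.33, -0.22 to 0.86).

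Of 26 neuronal and synaptic genes, 6 had enough UMIs to compare, of which 1 was higher and 1 lower in both libraries, beside the same 6.13% and 8.06% of all genes. Of 28 genes of neurite guidance and leucine-rich adhesion, the class of Amigo2, 15 could be compared. The ephrin gene Efnb2 and the semaphorin receptor gene Plxna2 were higher and Sema3c lower, counts near those shares, with medians of -0.13 in the control tumour and 0.19 in the knockdown tumour. Tubb3, a neuronal tubulin that many tumours carry, was at 117 CPM in control members and 61.7 CPM in the others (log2 ratio 0.92, 0.79 to 1.04) and at 113 and 67.6 CPM in the knockdown tumour (0.74, 0.57 to 0.92). Dclk1, a microtubule-binding kinase, was lower in both libraries. The Nptx1 partner gene Nptxr was at 17.2 and 17.9 CPM in the control tumour and at 20.8 and 19.5 CPM in the knockdown tumour, with both intervals of the ratio including 0. Tafa1, the relative of Tafa5, was at 102 CPM in control members and 103 CPM in the others. The 9 listed Tafa5 relatives and receptor genes summed to 132 CPM in both members and others of the control tumour. In the knockdown tumour they summed to 192 CPM in members and 171 CPM in the others.

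Genes outside the score were compared between members and others within each library. Of 11463 genes with at least 100 UMIs per library, 20 (0.174%) were at least 2-fold higher in members of both libraries and 92 (0.803%) at least 2-fold lower. The median log2 ratio over all genes was -0.06 in the control tumour and -0.01 in the knockdown tumour. The named genes were chosen by the ratio of the library nearer 0, so that they lie on the same side in both libraries is part of the choice.

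Timp3, an inhibitor of matrix metalloproteinases, had the highest ratio of the named genes. It was at 32.6 CPM in control members and 8.33 CPM in the others, a log2 ratio of 1.97 (1.69 to 2.24), and at 18.2 and 3.72 CPM in the knockdown tumour, a log2 ratio of 2.29 (1.76 to 2.80). It was concentrated in few cells, with a UMI in 16.7% of control and 13.8% of knockdown members. The top 10% of cells by Cryab and Krt14, counted without the members, also carried it, at 46.2 CPM in the control tumour and 13.0 CPM in the knockdown tumour. Chrna1, the alpha subunit of the muscle acetylcholine receptor, was at 29.4 and 13.9 CPM in the control (1.08, 0.82 to 1.33) and at 33.9 and 14.0 CPM in the knockdown tumour (1.28, 0.94 to 1.61). Rapsn, which encodes the rapsyn scaffold that clusters that receptor at the neuromuscular junction, was at 7.89 and 3.81 CPM in the control tumour and at 10.2 and 4.15 CPM in the knockdown tumour. The Cryab and Krt14 cells outside the members had 8.45 and 4.0 CPM. Cells with leukocyte markers also carried Rapsn, with a UMI in 28.7% of control and 25.1% of knockdown ones.

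Genes of growth and signalling were also among the leading ones. E2f8, an E2F family repressor that is transcribed around S phase, was at 34.4 and 13.7 CPM in the control (log2 ratio 1.33, 1.08 to 1.57) and at 30.1 and 12.8 CPM in the knockdown tumour (1.23, 0.87 to 1.58). The cycling gated cells had similar levels, 30.7 and 29.8 CPM. Etv4, an ETS factor downstream of MAPK signalling, was at 16.2 CPM in control members and 14.2 CPM in knockdown members. Cycling gated cells had 11.9 and 13.4 CPM of Etv4. The log2 ratios of Etv4 in members over the others were 1.15 and 1.03. Rapgef3, the cAMP-activated exchange factor EPAC1, had 1.49 and 1.51. Wwc1, the Hippo pathway protein KIBRA, had 1.35 and 1.67, and Rasa3, a GTPase-activating protein for RAS and RAP, had 1.03 and 0.99. Rasa3 was at 13.1 and 10.4 CPM in members and higher, at 25.4 and 23.5 CPM, in cells with leukocyte markers.

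Coq8a, a kinase-like protein of coenzyme Q synthesis, was at 71.3 CPM in control members and 29.9 CPM in the others and at 62.6 and 28.7 CPM in the knockdown tumour. Cycling gated cells had 57.7 CPM of Coq8a in the control tumour and 55.9 CPM in the knockdown tumour. Crabp2, a cytosolic carrier of retinoic acid, was at 57.2 and 26.3 CPM in the control tumour and at 85.2 and 29.1 CPM in the knockdown tumour. In the Cryab and Krt14 cells outside the members it was at 133 and 81.7 CPM. Its log2 ratio in the control tumour turned from 1.12 to -0.75 with Tnnt2 left out of the score and to -0.34 by mean rank of the 4 genes. Fyb, an adaptor best known from T cells, had log2 ratios of 1.39 and 0.99, and 90.2% of control cells with leukocyte markers had a Fyb UMI. The orphan receptor Gpr149 had 1.31 and 1.06, and Nav2, a neuron navigator gene, 0.95 and 1.27. Members had 29.4 CPM of Nav2 in the control tumour and 33.0 CPM in the knockdown tumour, beside levels of 36.5 and 33.2 CPM in cycling gated cells and 41.1 and 36.8 CPM in cells with leukocyte markers. The noncoding Gm20744 and G930009F23Rik completed the 15 genes. Ccnd1, cyclin D1, was named after its values were seen: it was at 627 and 325 CPM in the control tumour and at 582 and 304 CPM in the knockdown tumour.

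The lower genes named by the rule were of several kinds. H19, the imprinted noncoding RNA, was at 139 CPM in control members and 622 CPM in the others, a log2 ratio of -2.16 (-2.25 to -2.08). In the knockdown tumour it was at 264 and 809 CPM, a log2 ratio of -1.61 (-1.71 to -1.52). Cells with leukocyte markers held 216 CPM in the control tumour and 407 CPM in the knockdown tumour, above the members in each. Gas1, a growth-arrest gene and hedgehog co-receptor, was at 19.8 and 81.3 CPM in the control (-2.04, -2.28 to -1.80) and at 20.4 and 77.1 CPM in the knockdown tumour (-1.92, -2.27 to -1.58), and it too was higher in cells with leukocyte markers (28.9 and 35.8 CPM) than in members. What free RNA from other cells adds to these low levels was not tested.

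Of the other named lower genes, C1s1 encodes a complement protease. It was at 2.57 against 12.2 CPM in the control tumour and 2.66 against 15.5 CPM in the knockdown tumour. F3, tissue factor, which starts coagulation, was at 37.7 and 123 CPM in the control tumour and at 56.0 and 184 CPM in the knockdown tumour. Cxcl9, a T cell chemokine induced by interferon-gamma, had log2 ratios of -2.08 and -1.97. The small proteoglycan gene Ogn had -2.10 and -2.05, the dermal matrix gene Dpt -1.61 and -1.63, the fatty-acid carrier Fabp4 -2.09 and -2.65, and the protocadherin Pcdh9 -1.89 and -1.50.

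**Figure D3:**
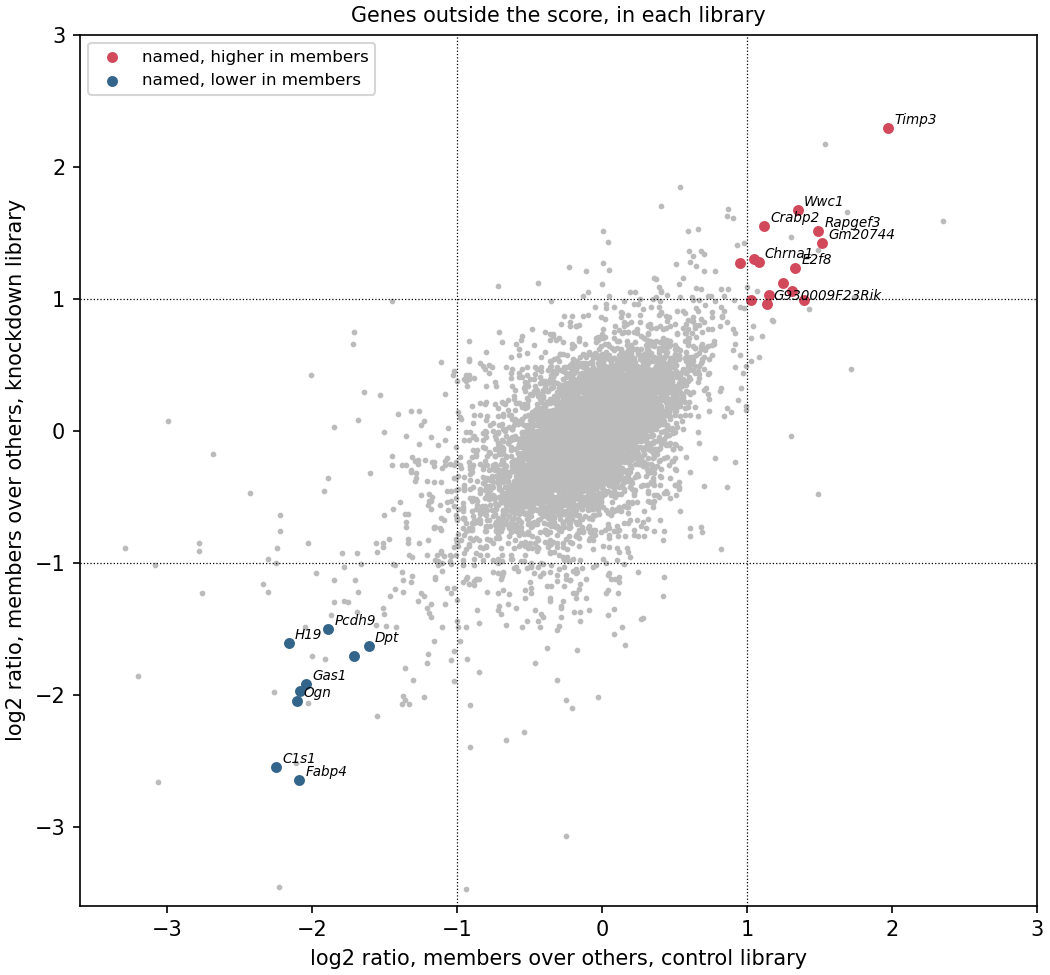
Log2 ratio of members over others for genes outside the score, in the control library (x axis) and the knockdown tumour (y axis). Each point is a gene, dotted lines mark 2-fold, and coloured points are the genes named by the rule as higher or lower, of which the less crowded are labelled. The axes leave out 10 genes with larger ratios. Timp3 stands highest among the named genes (1.97 and 2.29).

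The lists of genes tell which groups moved together. A member of a list is counted here as higher or lower when the counting intervals of members and others did not meet in either library. The shares of all genes that met it are the 6.13% and 8.06% given above. Of 20 interferon response genes, 18 were lower and 0 higher, with median log2 ratios of -0.59 in the control tumour and -0.58 in the knockdown tumour. Cxcl10, a chemokine for CXCR3-bearing lymphocytes, was at 175 CPM in control members and 388 CPM in the others and at 275 and 544 CPM in the knockdown tumour. Gbp2, a guanylate-binding protein, was at 199 and 324 CPM in the control tumour and at 212 and 392 CPM in the knockdown tumour. Isg15, a ubiquitin-like modifier, was at 181 and 281 CPM and at 302 and 423 CPM. The count was 18 of 20 also when the 10% of cells with the most collagen RNA were left out of the others. It was 2 of 20 when 6 macrophage genes had to be at 0, which left 19 control and 12 knockdown members.

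Of 10 genes of class I antigen presentation, 8 were lower and 0 higher, with small differences. H2-K1 was at 1511 and 1889 CPM in the control (log2 ratio -0.32, -0.35 to -0.29) and at 1733 and 2082 CPM in the knockdown tumour (-0.26, -0.30 to -0.22). B2m, the light chain of class I, was at 1282 and 1600.4 CPM in the control tumour and at 1586 and 1890.3 CPM in the knockdown tumour. Nlrc5, the transactivator of class I genes, was at 36.0 and 35.2 CPM and at 39.2 and 36.7 CPM, with both intervals of the ratio including 0.

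Of 15 fibroblast matrix genes, 10 were lower and 0 higher, with medians of -0.90 and -0.61. Col3a1 was at 521 CPM in control members and 1674 CPM in the others, and at 791 and 1837 CPM in the knockdown tumour. The proteoglycan gene Dcn was at 450.2 and 1141 CPM in the control tumour and at 669 and 1182 CPM in the knockdown tumour. Col6a3 differed little, at 208 and 221 CPM and at 233 and 229.7 CPM. Without the collagen-richest 10% of the others, 10 genes were still lower. In the mesenchymal list, 7 of 17 were lower and 2 higher. Vim, vimentin, was higher, at 2418 and 2164 CPM in the control tumour and 2404 and 2121 CPM in the knockdown tumour, while Fn1, fibronectin, was lower, at 341 and 819.6 CPM and at 617 and 1110.1 CPM. Of 17 genes of TGF-beta and BMP signalling, 6 were lower and 0 higher.

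Some chromatin and replication genes were higher. Of 12 genes of the HMGA and chromatin architecture list, 6 were higher and 1 lower, with medians of 0.26 and 0.28. H2az1, a histone variant, was at 1551 and 1215 CPM in the control tumour and at 1399.8 and 1115 CPM in the knockdown tumour. Hmgb2, a high-mobility-group protein, was at 389 and 280.2 CPM and at 358 and 280.4 CPM. Of 20 S phase genes, 8 were higher and 0 lower, with medians of 0.41 and 0.23. The helicase subunit Mcm6 was at 132 and 95.6 CPM in the control tumour and at 110.0 and 95.3 CPM in the knockdown tumour, and the ribonucleotide reductase gene Rrm2 was at 121 and 93.9 CPM and at 129 and 93.4 CPM. Of 19 G2/M genes, 6 were higher and 0 lower. The rule removed the most strongly cycling cells, so both phase lists describe what was left below that limit.

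Of 10 measured LLC tumour markers, 9 were higher and 1, S100a6, lower, and 3 of the 10 (Hmga2, Tnfrsf12a and Igf2bp2) were genes of the gate. Of 15 MAPK feedback genes, 5 were higher and 0 lower. They were Dusp6, Etv4, Etv5, Fosl1 and Hbegf. Fosl1, an AP-1 subunit, was at 128 and 101 CPM in the control tumour and at 121 and 98.5 CPM in the knockdown tumour. Of 14 immediate early genes, 2 were higher and 6 lower. Fos was at 75.1 and 158 CPM in the control tumour and at 136 and 187 CPM in the knockdown tumour. Of 8 hexosamine pathway genes, 2 were lower, Uap1 and Nagk, and 0 higher.

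**Figure D4:**
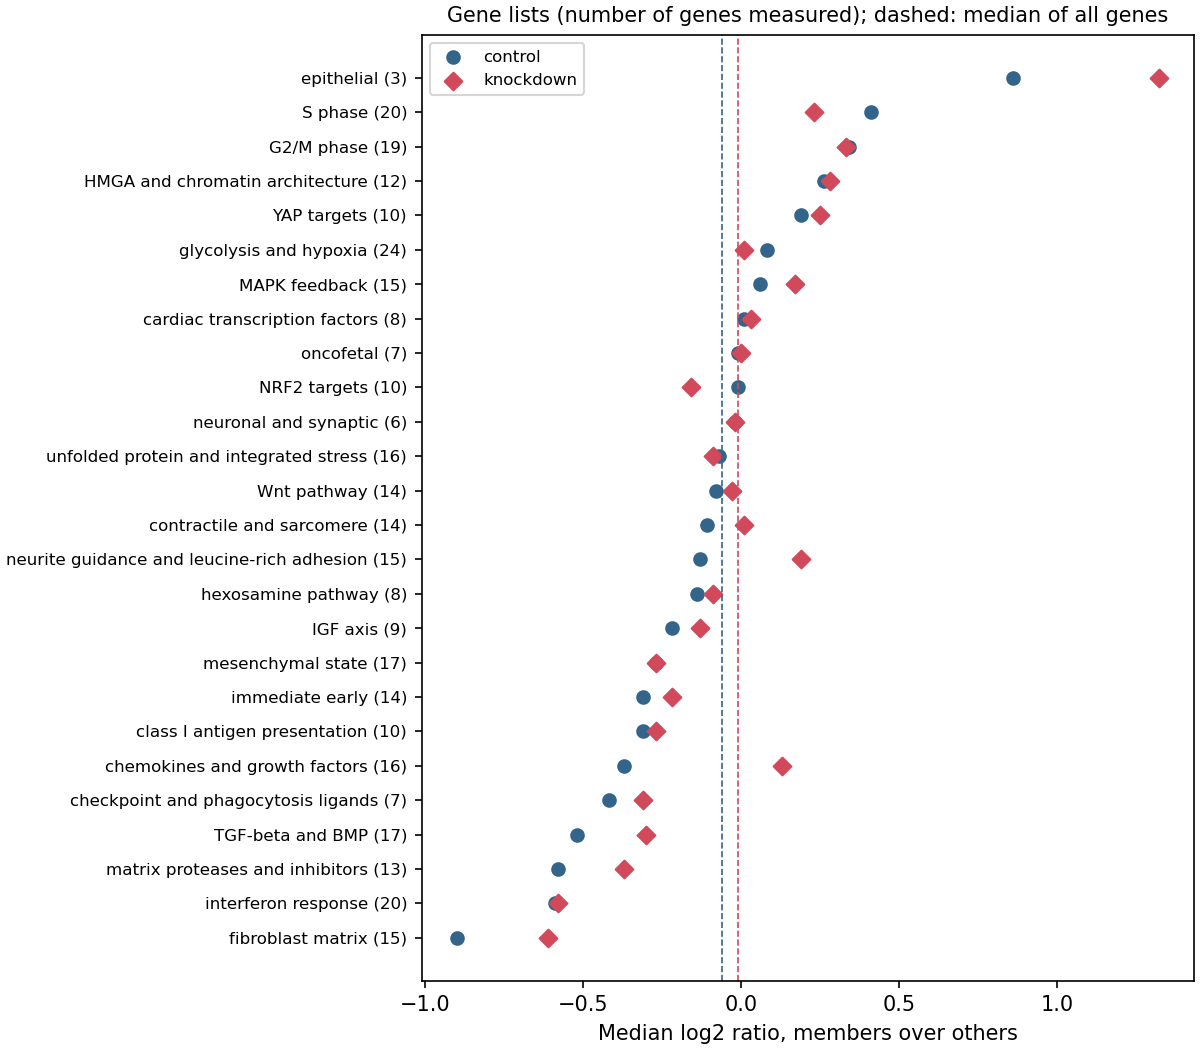
Median log2 ratio of members over others for each pathway list, in the control library (circles) and the knockdown tumour (diamonds), with the number of genes measured in parentheses. Dashed lines are the medians of all genes (-0.06 and -0.01). Fibroblast matrix and interferon response lie lowest of these in the control library, and the epithelial list rests on 3 genes.

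Levels also differed between groups of cells below the cut. In the control library Hmga1 was at 55.1 CPM in cells with a score of 0, at 116 CPM in the highest-scoring of 3 equal groups of the other cells with a score, and at 137 CPM in members above the member median. In the knockdown tumour it was at 47.0, 103 and 114 CPM. Cells with a score of 0 were shallower, with median UMIs of 15238 in the control tumour and 13082 in the knockdown tumour. E2f8 was at 8.44, 25.8 and 40.2 CPM in the same control groups and at 8.68, 23.7 and 35.6 CPM in the knockdown tumour. H19 went the other way, from 1005 to 251 to 127 CPM in the control tumour and from 1069 to 438 to 238 CPM in the knockdown tumour. Cxcl9 was at 82.9, 13.6 and 5.91 CPM in the control tumour and at 81.1, 20.1 and 8.42 CPM in the knockdown tumour. The steps between were not all in 1 direction. Cxcl9 was at 18.5 CPM (15.1 to 22.5) in control members below the median, above the 13.6 CPM (11.6 to 15.8) of the group under the cut, and at 21.0 CPM in such knockdown members. However, 1 cell held 34.4% of the 131 Cxcl9 UMIs of all control members, and the levels were not recomputed without it. The intervals do not cover such spread between cells. Control Hmga1 was at 95.8 CPM in the lowest and 93.6 CPM in the middle of the 3 groups.

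**Figure D5:**
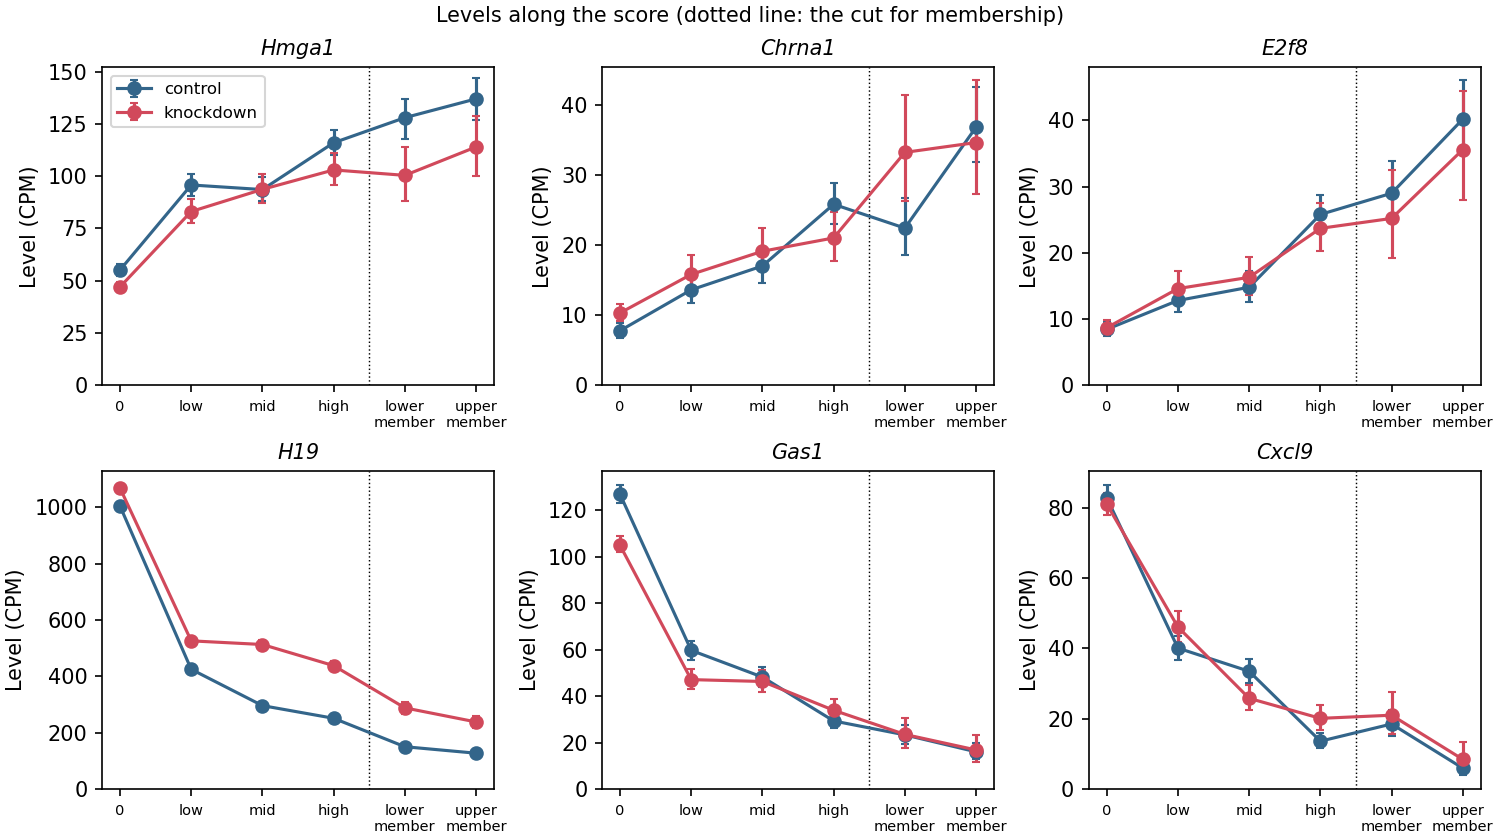
CPM of 6 genes in cells with a score of 0, in 3 groups of rising score among the others and in members below and above the member median, by library, with 95% counting intervals. H19, Gas1 and Cxcl9 were highest at a score of 0, and Hmga1, Chrna1 and E2f8 were lowest there.

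Members differed by the gene that led their score. Taking cells in which 1 gene gave over 50% of the score UMIs, Crabp2 was at 76.2 CPM in 299 control cells led by Tnnt2 and at 135 CPM in 121 such knockdown cells. In cells led by Tafa5 it was at 9.71 CPM (21 control cells) and 25.5 CPM (20 knockdown cells), and in those led by Amigo2 at 0 CPM (23 cells) and 8.89 CPM (24 cells). In cells led by Nptx1 it was at 31.5 CPM (26 cells), a log2 ratio over the others of 0.26 (-0.68 to 1.08), and at 56.3 CPM (31 cells), a log2 ratio of 0.95 (0.29 to 1.56). Crabp2 was thus highest in cells led by Tnnt2 in both libraries. Timp3 was high in cells led by Tnnt2 (46.1 and 22.8 CPM) and Tafa5 (24.3 and 17.9 CPM). It had 2 or fewer UMIs in cells led by Amigo2 or Nptx1 in either library. Gm20744 was at 40.9 and 36.3 CPM with Tnnt2 and at 68.5 and 71.1 CPM with Amigo2. Chrna1 was at 51.7 and 58.3 CPM in cells led by Nptx1, against 26.2 and 25.3 CPM with Tnnt2.

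When the non-cycling gated cells were clustered without the score genes, members were spread over all 12 clusters. The cluster led by Gm20744, Wwc1, Ccnd1 and Gpr149, with Amigo2 and Nptx1 also among its leading genes, held 248 of the 732 members, 22.0% of its 1128 cells, and a cluster led by replication histones and Esco2 held 194, 16.2% of its 1194 cells. A cluster of 88 cells led by the leukocyte genes Cytip, Irf8, Lcp1 and Plek, among others, held 12 members, 1 of 24 control cells and 11 of 64 knockdown cells. A cluster led by Cilp, C1s1 and Col1a1 held 5 members among 1179 cells, or 0.424%. Of the members, 19.7% also belonged to the top 10% by Cryab and Krt14 and 13.3% to the top 10% by Krt16 and Klk8. The first overlap was 16.5% of control and 25.6% of knockdown members, and the second 15.7% and 8.66%. Only 0.683% belonged to the top 10% by 5 collagen genes. Those collagen-rich cells had Hmga1 at 13.4 CPM in the control tumour and 19.5 CPM in the knockdown tumour and H19 at 1794 and 2097 CPM.

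Between knockdown and control members, 17 of 8010 genes (0.212%) were at least 2-fold higher and 12 (0.150%) at least 2-fold lower. The median log2 ratio over all genes was 0.05. The 4 globin genes led the higher side and came almost wholly from 1 cell, which held 1296 of the 1369 globin UMIs (94.7%) of knockdown members. Leaving out globin-rich cells left 14 genes higher and 12 lower.

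Clu, clusterin, a secreted chaperone, was at 8.08 CPM in control members and 29.2 CPM in knockdown members, a log2 ratio of 1.86 (1.29 to 2.43), with 0.79 (0.59 to 0.99) in the others. Sema3c, a secreted semaphorin, was at 7.32 and 26.1 CPM, a log2 ratio of 1.84 (1.24 to 2.44), with 1.19 in the others. Krt14, a basal keratin, was at 25.4 and 75.5 CPM (1.57, 1.24 to 1.90), with 0.81 in the others. Grm3, a metabotropic glutamate receptor, was at 30.2 and 77.5 CPM (1.36, 1.04 to 1.67), with 1.12 in the others. All 4 were higher in the knockdown tumour in both kinds of cell.

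On the lower side, Krt16, a stress keratin, was at 82.1 CPM in control members and 6.64 CPM in knockdown members, a log2 ratio of -3.63 (-4.29 to -3.02), with -2.29 in the others. The kallikrein Klk8 was at 40.6 and 8.19 CPM (-2.31, -2.95 to -1.71), with -3.00 in the others. These genes sat in few cells: a Krt16 UMI was present in 8.58% of control and 5.12% of knockdown members. Slurp1, a secreted LY6 protein of squamous epithelium, had 105 UMIs in control and 3 in knockdown members. Its log2 ratio was -3.91 in members and -2.13 in the others. When the top 10% of cells by Krt16 and Klk8 were left out, Krt16 was at a log2 ratio of 1.06, Klk8 at 1.06, Slurp1 at 0.48 and the chemokine Ccl5 at 0.72, and 4 genes in all were at least 2-fold lower.

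Anxa8, an annexin, was at 28.2 and 8.19 CPM (-1.78, -2.46 to -1.15), with -1.43 in the others. The complement gene C4b was at 12.3 and 2.66 CPM (-2.21, -3.41 to -1.14), with -1.31 in the others. Ptn, the growth factor pleiotrophin, was at 237 and 117 CPM (-1.02, -1.20 to -0.84), with -0.58 in the others. With Tnnt2 left out of the score, the log2 ratio of Ptn in members was 0.28. Xylt1, a xylosyltransferase that starts proteoglycan chains, was at 21.4 and 8.19 CPM (-1.38, -2.08 to -0.73), with -0.43 (-0.62 to -0.25) in the others, and its ratio was -0.33 without the top 10% by Krt16 and Klk8. Ccl5 was at 116 and 42.7 CPM (-1.44, -1.73 to -1.16), with -0.51 in the others. The difference between members and others in these ratios was not tested.

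Of 19 interferon response genes measured, 10 were higher in knockdown than in control members beyond counting intervals, by less than 2-fold each, and 0 were lower, with a median log2 ratio of 0.31 in members and 0.32 in the others. Over all 8010 genes, 9.01% were higher and 4.03% lower by this criterion. Of 8 hexosamine pathway genes, 0 were higher and 0 lower.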

How the data were processed

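Gene expression was measured in single cells of 1 control and 1 knockdown tumour. The authors deposited raw UMI counts of 34097 genes for each cell barcode, whose Cell Ranger version is 6.1.0 according to the file headers and 3.1.0 in the submitters' processing notes. The genome build is not given in the sources used here, and 1573 genes without a unique symbol were kept by identifier. All values were computed from the deposited counts with Python 3.11.15, numpy 2.4.6 and scipy 1.17.1. UMIs were summed per library over members, others or a named group, and divided by the summed UMIs of all genes to give CPM. CPM has exact Poisson and shares have exact Clopper-Pearson intervals at 95%, and a log2 ratio has the range that its 2 Poisson intervals allow. A count of 0 was set to 3 counts for ratios. The macrophage limits of the gate were Lyz2 and summed C1qa, C1qb and C1qc each below 5 per 10000, with Ptprc and Cd3e at 0. Cells with leukocyte markers were those of the same depth with a Ptprc UMI and a macrophage gene above its limit or a Cd3e UMI.

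Genes needed at least 100 UMIs in members plus others of each library, or in members of at least 1 library for knockdown against control. The named genes were the score genes, Hmga1 and Gfpt2, then the 15 with the highest and 10 with the lowest ratio by the library nearest 0 among genes with a UMI in at least 10% of members or others, the 8 highest and 8 lowest between knockdown and control members by the interval bound nearest 0, and up to 4 genes with the most UMIs of each list. Further list genes, such as Tubb3, Tnni2, Gata6, Nlrc5, Col6a3 and Fos, were named after their values were seen. A gene named by this rule is not reported here. The members and the 27 pathway and 17 marker lists were chosen with earlier results of these data known. Doublets were not removed in the values given. The cells with the highest Scrublet scores were 3.56% of control and 2.76% of knockdown members and 2.88% and 2.34% of the others, and were left out as an alternative. Clustering used scanpy 1.11.5 and leidenalg 0.10.2 on 30 components of 1991 variable genes without the score genes. The calling steps were tried on Poisson counts drawn around the summed counts. Those counts had no spread between cells and no selection by the score, so the trial does not cover either. Alternatives varied the score, the share taken, the gate, scaling, depth and gene minimum.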

Additional observations from a re-analysis of the deposited data

How the results depend on the processing

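No paired analysis was possible because each group has 1 library. The share ratio of 0.555 became 0.916 without Tnnt2 in the score and lay between 0.479 and 0.653 under the other alternatives that gave it. With at least 20 UMIs, 55 genes were higher and 198 lower in members, and 107 higher and 90 lower in knockdown members. With at least 500 they were 6, 46, 1 and 3. Requiring 6 macrophage genes at 0 left 19 control and 12 knockdown members and gave 1, 23, 0 and 3. Without the collagen-richest others (chosen after seeing the data, as were the alternatives without globin-rich cells and without cells with an Xist UMI), 60 genes were lower in members. Genes higher in knockdown members were 9 on thinned counts, where at least 2 score UMIs of 5000 stood in for the top 10% because of ties, 8 in the top 5% and 27 both in the top 20% and with each library ranked alone. Lower genes were 7 in the top 5% and 4 without the top 10% by Krt16 and Klk8. Similar counts could hold other genes. Without Tnnt2 in the score the counts were 28, 96, 17 and 13, of which 10, 55, 6 and 9 were the reported genes. Of the 17 genes higher in knockdown members, 6 stayed on thinned counts, 2 in the top 5% and 14 with each library ranked alone. The reported members kept were 54.9% on thinned counts, 50.4% without Tnnt2 and 85.8% with each library ranked alone.

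Of 2280 recomputed values, 96 had another sign than reported, and 26 of these were of values whose counting interval (for a list, the medians of its genes' bounds) excluded 0 and are given here. The epithelial list median in the knockdown library became -0.06 on thinned counts, -1.42 without Tnnt2 and -0.30 by mean rank, and that in the control library became -0.14 with the strict macrophage limit. Crabp2 in the control library became -0.75 without Tnnt2, -0.34 by mean rank and -0.23 with the strict limit, and -0.91 in the knockdown library with that limit. By mean rank the glycolysis list median in the control library was -0.01. Without Tnnt2, Ptn was 0.28 in knockdown over control members. Without the top 10% by Krt16 and Klk8, Krt16 was 1.06, Klk8 1.06, Slurp1 0.48 and Ccl5 0.72. The strict limit also turned Wwc1 (-0.50) and Etv4 (-0.14) in the control library, and Chrna1 (-0.31), C1s1 (0.62) and Hmga1 (-0.06) in the knockdown library. Between knockdown and control members it turned Hbb-bs (-0.76), Krt14 (-1.76), Sema3c (-0.76), Klk8 (0.41), Ccl5 (4.87), Anxa8 (0.09) and C4b (2.41), from few UMIs. The interferon list had 16 to 19 of 20 genes lower in both libraries under every alternative but the strict limit, which gave 2. The causes were not tested.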
